A study of Mus musculus with 10 samples.

Results

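Aminoacyl-tRNA synthetases, the enzymes that load each amino acid onto its tRNA, were examined in livers of mice that overexpress the stress kinase ASK1 in hepatocytes. The set was defined by gene name: 35 synthetase symbols plus the methionyl enzyme, which the deposited expression table lists as Mars, gave 36 of the 54532 genes in the table. Of these, 20 encode cytosolic enzymes and 16, whose names end in 2, encode mitochondrial enzymes. All 36 passed the filter on low values, with 29 to 10343 reads per gene and liver, so that no member was lost before testing.

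Bulk liver RNA was sequenced from 10 mice on a C57BL/6J background that were placed on a high-fat diet (HFD) at 6 weeks of age, kept on it for 7 weeks and fasted for 5 h before tissue collection. All mice carried murine ASK1 cDNA in the ROSA26 locus behind a lox-stop-lox cassette, homozygous in the ASK1f/f line. The 5 ASK1f/f mice had no Cre and served as control littermates, and the 5 ASK1+hep mice also carried Alb-Cre, a transgene in which the albumin promoter drives the recombinase and which removes the stop cassette in albumin-expressing cells, mainly hepatocytes. Each library came from the liver of 1 mouse, and the values are FPKM, that is, fragments per kilobase of gene, scaled to the size of the library. In bulk liver, a lower number of cells of a type and less RNA per cell cannot be told apart.

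Nearly every synthetase recognises 1 amino acid and the tRNAs that carry it (Eprs, the glutamyl-prolyl enzyme, serves both of its amino acids), and the charged tRNA then feeds the ribosome. Cytosolic protein synthesis and the translation of the few proteins encoded by mitochondrial DNA use separate sets of enzymes, nearly all of them encoded by separate nuclear genes. Exceptions are Kars and Gars, whose single genes give rise to both the cytosolic and the mitochondrial enzyme, and glutamine, for which mitochondria use an amidotransferase instead of a synthetase. In the liver, which exports large amounts of protein, many cytosolic synthetase genes are known targets of ATF4, the transcription factor of the integrated stress response that also drives Asns and Fgf21, whereas the mitochondrial enzymes are not usually counted among them. ASK1 is a stress-activated kinase upstream of JNK and p38, and the comparison asks whether its overexpression was accompanied by a change in either class of synthetase.

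The libraries held 13367742 to 16163378 reads on genes. Map3k5, which encodes ASK1, was at 4.71 to 6.88 FPKM in ASK1f/f replicates 1 to 4 and at 7.68 to 16.4 FPKM in the ASK1+hep livers, but at 19.8 FPKM, the highest of all 10, in the library labelled ASK1f/f replicate 5, in which Fgf21 (3.21 FPKM) was as in ASK1f/f replicates 1 to 4 (2.46 to 4.74 FPKM). ASK1+hep replicate 3 had a median correlation of 0.961 with the other livers over the genes tested, against 0.981 to 0.985 for the others, and was the highest or the lowest liver for 52.4% of all genes tested. All 6 hepatocyte marker genes passed the filter in a tissue labelled liver, with a summed level of 32151 to 44445 FPKM in ASK1f/f and 38282 to 47374 FPKM in ASK1+hep livers. Results are therefore given with all 10 livers and, where a value rests on them, without these livers.

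Neither class of synthetase passed the test for a difference between the genotypes. In limma on log2(FPKM + 1), 0 of 36 members had an adjusted p at or below 0.05, and 0 of 36 had an unadjusted p under 0.05. Over all 13306 genes tested, 0% reached the adjusted threshold, whereas 5.77% (768 genes) were under 0.05 before adjustment. The lowest adjusted p of any member was 0.812. The groups of 5 livers did not separate fully for any of the 36 members, against 0.864% of all genes tested.

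**Figure D1:**
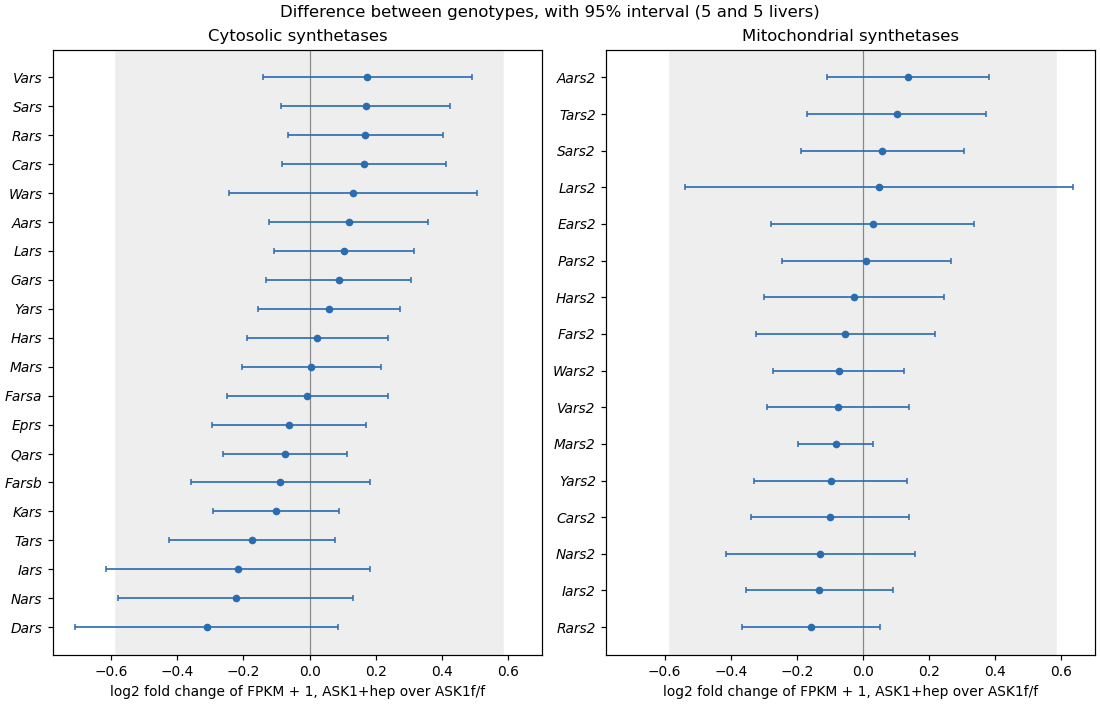
Log2 fold change of FPKM + 1 in ASK1+hep over ASK1f/f livers for each synthetase (points), with the 95% interval from limma (bars) and the range of a 1.5-fold difference shaded. All 36 intervals include 0, and only those of Dars, Iars and Lars2 reach outside the shaded range.

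The width of the intervals shows how large a difference could have gone undetected. For 33 of the 36 members the 95% interval of the fold change lay within 1.5-fold in either direction, comprising 18 of 20 cytosolic and 15 of 16 mitochondrial enzymes, against 78.6% of all genes tested. The exceptions were Dars with an interval from 0.61-fold to 1.06-fold, Iars with 0.65-fold to 1.14-fold and Lars2 with 0.69-fold to 1.55-fold. Since 1 FPKM is added before the logarithm, differences of weakly expressed members are understated on this scale. With 0.1 FPKM added instead, 30 of 36 intervals lay within 1.5-fold, against 52.4% of all genes.

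The classes had their fold changes on either side of 0. Of the 20 cytosolic enzymes 11 had a higher mean and 9 a lower mean in ASK1+hep livers, with a median log2 fold change of 0.015 and a range from -0.31 for Dars to 0.18 for Vars. Of the 16 mitochondrial enzymes 6 had a higher and 10 a lower mean, with a median of -0.063 and a range from -0.16 for Rars2 to 0.14 for Aars2. Over all genes tested, 48.0% had a higher mean and the median was -0.0065. These directions moved with the scaling of the libraries: when libraries were scaled by all their reads, 8 of 20 cytosolic and 2 of 16 mitochondrial enzymes had a higher mean, and the median over all genes was -0.052. Without the livers of ASK1f/f replicate 5 and ASK1+hep replicate 3, 12 of 20 and 3 of 16 had a higher mean, and again 0 of 36 members had an unadjusted p under 0.05.

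The levels of the enzymes covered a wide range. The median level was 10.1 FPKM over the cytosolic and 4.45 FPKM over the mitochondrial enzymes. Among the cytosolic enzymes Nars (asparaginyl) was highest and Cars (cysteinyl) lowest, and among the mitochondrial enzymes Lars2 (leucyl) was highest and Mars2 (methionyl) lowest. FPKM divides by the deposited gene length, which is 9282 bases for Aars and 2632 bases for Nars, so Aars rested on 3241 to 4523 reads per liver and Nars on 674 to 1571 reads at a similar level in FPKM.

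**Figure D2:**
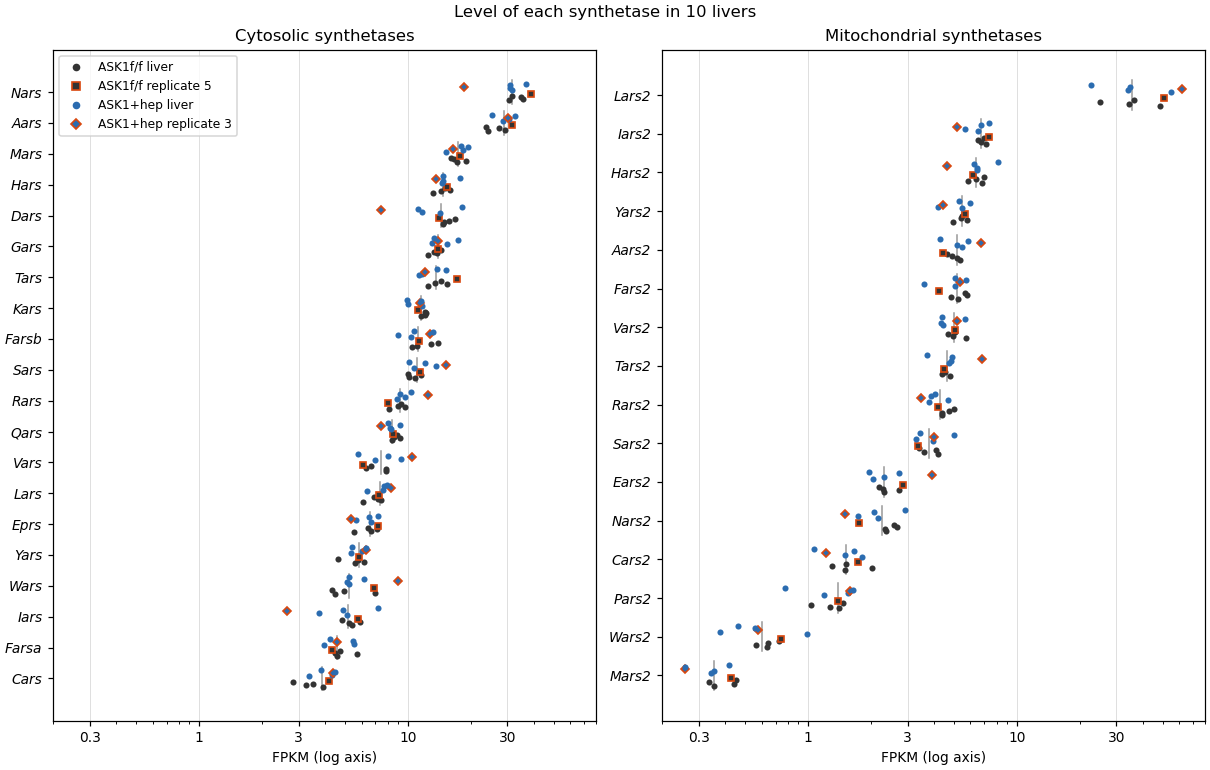
FPKM of each synthetase in each of the 10 livers on a log axis, sorted by the median over all livers (grey bars), with ASK1f/f in black and ASK1+hep in blue. The black and blue points overlap for all 36 genes, and ASK1+hep replicate 3 (diamonds) lies apart from the other livers for Nars, Dars, Iars and Wars.

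Several cytosolic enzymes are bound together in the multisynthetase complex, which holds 8 enzymes encoded by Eprs, Iars, Lars, Mars, Qars, Rars, Kars and Dars. Of these, 3 had a higher and 5 a lower mean in ASK1+hep livers, with a median log2 fold change of -0.068. Dars, the aspartyl enzyme (chr1:128363707-128417368, GRCm38), had the lowest p of all members. Levels in order of replicate number were 14.7, 14.95, 15.8, 16.8 and 14.1 FPKM for ASK1f/f and 14.3, 11.6, 7.46, 11.2 and 18.2 FPKM for ASK1+hep, and the same order is kept for the genes that follow. The ASK1+hep livers therefore held both the lowest and the highest value of the 10, and the ASK1f/f livers lay between them. The log2 fold change of Dars was -0.31 ± 0.18 (SE, n = 5 per genotype), with an exact two-sided permutation p of 0.143. Without ASK1+hep replicate 3 it was -0.15, and without ASK1+hep replicate 5 it was -0.45.

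Iars, the isoleucyl enzyme, which also removes wrongly attached valine (chr13:49682100-49734267), followed the same order of livers at its extremes. It was at 5.41, 5.22, 5.91, 4.82 and 5.79 FPKM in ASK1f/f and at 5.14, 3.76, 2.64, 4.91 and 7.19 FPKM in ASK1+hep livers, again with ASK1+hep replicate 3 lowest and replicate 5 highest. Iars had a log2 fold change of -0.22 ± 0.18, and of -0.066 without replicate 3. Leaving out ASK1+hep replicate 5 brought Dars and Iars, and no other member, to an unadjusted p under 0.05, while 1724 of all genes reached it in that comparison, and the adjusted p of Iars was then 0.383.

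Rars, the arginyl enzyme (chr11:35808381-35834506), was at 8.16, 9.66, 8.95, 9.24 and 8.07 FPKM in ASK1f/f and at 8.85, 9.68, 12.4, 9.15 and 10.3 FPKM in ASK1+hep livers. The 3 highest values came from ASK1+hep livers and the 2 lowest from ASK1f/f livers, while the rest were mixed. Rars had a log2 fold change of 0.17 ± 0.11 (exact permutation p = 0.103), and of 0.097 without ASK1+hep replicate 3.

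Kars, the lysyl enzyme of both compartments (chr8:111993443-112011323), varied least between livers of 1 genotype among the cytosolic enzymes described here. It was at 11.6, 12.1, 12.2, 12.1 and 11.1 FPKM in ASK1f/f and at 11.7, 10.0, 11.5, 11.6 and 9.94 FPKM in ASK1+hep livers. ASK1+hep replicates 2 and 5 were the lowest of the 10, and the other 3 ASK1+hep livers lay within the ASK1f/f range. Its log2 fold change was -0.10 ± 0.09 (exact permutation p = 0.127). The other 4 enzymes of the complex, Eprs, Lars, Mars and Qars, had log2 fold changes from -0.073 (Qars, glutaminyl) to 0.10 (Lars, leucyl).

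Outside the complex, Nars and Aars were the most abundant cytosolic enzymes. Nars was at 30.4, 35.7, 34.8, 31.6 and 38.8 FPKM in ASK1f/f and at 31.7, 30.9, 18.6, 30.8 and 36.9 FPKM in ASK1+hep livers. Only ASK1+hep replicate 3 lay clearly below the rest, and the log2 fold change of -0.22 ± 0.16 was -0.069 without it. Aars, the alanyl enzyme (chr8:111033144-111057664), was at 24.2, 29.1, 27.2, 23.8 and 31.5 FPKM in ASK1f/f and at 28.6, 30.5, 30.3, 32.6 and 25.3 FPKM in ASK1+hep livers. Its values were mixed between the genotypes, with a log2 fold change of 0.12 ± 0.11.

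Tars, the threonyl enzyme (chr15:11382301-11399665), was at 12.5, 15.4, 13.4, 14.5 and 17.2 FPKM in ASK1f/f and at 11.4, 11.7, 12.0, 15.3 and 13.8 FPKM in ASK1+hep livers. ASK1+hep replicates 1 to 3 were the lowest of the 10, whereas replicates 4 and 5 fell among the ASK1f/f livers. This gave a log2 fold change of -0.17 ± 0.12 (exact permutation p = 0.135).

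Sars, the seryl enzyme (chr3:108424865-108445209), was at 10.8, 10.2, 11.5, 10.0 and 11.4 FPKM in ASK1f/f and at 10.7, 13.7, 15.2, 12.1 and 10.1 FPKM in ASK1+hep livers. ASK1+hep replicates 2 to 4 were the highest of the 10 and the other ASK1+hep livers lay within the ASK1f/f range, giving a log2 fold change of 0.17 ± 0.12 (exact permutation p = 0.183). Vars, the valyl enzyme (chr17:35000987-35016322), was at 7.87, 7.82, 6.33, 6.69 and 6.08 FPKM in ASK1f/f and at 7.00, 9.23, 10.5, 8.04 and 5.76 FPKM in ASK1+hep livers. The same ASK1+hep replicates 2 to 4 were the highest, but replicate 5 was the lowest of all, and the log2 fold change was 0.18 ± 0.15. Cars (chr7:143557230-143600090) was at 3.93, 3.25, 3.52, 2.82 and 4.20 FPKM in ASK1f/f and at 3.35, 4.34, 4.38, 4.50 and 3.85 FPKM in ASK1+hep livers. Cars had a log2 fold change of 0.16 ± 0.11 (exact permutation p = 0.143), with overlapping groups.

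The other 6 cytosolic enzymes outside the complex, Farsa and Farsb (the subunits of the phenylalanyl enzyme), Gars (glycyl), Hars (histidyl), Wars (tryptophanyl) and Yars (tyrosyl), had log2 fold changes from -0.088 for Farsb to 0.13 for Wars. Wars, which is also known as an interferon-induced gene, reached 9.01 FPKM in ASK1+hep replicate 3, against 4.33 to 6.93 FPKM in the other 9 livers. The summed level of 8 interferon-induced genes in that liver was 52.6 FPKM, the lowest among the ASK1+hep livers (up to 76.3 FPKM). It lay within the range of the ASK1f/f livers, 52.4 to 64.8 FPKM. Whether interferon had a part in the level of Wars was not tested. Without ASK1+hep replicate 3 the log2 fold change of Wars was 0.0023.

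Among the mitochondrial enzymes, Rars2 (arginyl, chr4:34614957-34660167) had the lowest p. It was at 4.37, 4.40, 4.75, 5.00 and 4.17 FPKM in ASK1f/f and at 3.79, 4.69, 3.48, 3.86 and 4.06 FPKM in ASK1+hep livers. In 4 of 5 ASK1+hep livers the level was below that of every ASK1f/f liver, and ASK1+hep replicate 2 lay among them. With a log2 fold change of -0.16 ± 0.10, the exact permutation p of 0.0476 was the only p under 0.05 among the 16 members described liver by liver, was not adjusted for their number, and the adjusted p in limma was 0.812. When 1 liver was left out at a time, Rars2 stayed under 0.05 in 2 of 10 cases, those that dropped ASK1+hep replicate 2 or ASK1f/f replicate 5, and the other 8 took it above 0.05. With ASK1+hep replicate 3 dropped, the smallest exact p of the 16 was 0.0952.

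Mars2, the methionyl enzyme (chr1:55237177-55248470), rested on only 40 to 79 reads per liver. It was at 0.355, 0.444, 0.337, 0.454 and 0.426 FPKM in ASK1f/f and at 0.343, 0.356, 0.257, 0.258 and 0.418 FPKM in ASK1+hep livers. ASK1+hep replicates 3 and 4 were the lowest, and the other ASK1+hep livers lay within the ASK1f/f range. Its log2 fold change was -0.082 ± 0.05 with 1 FPKM added and -0.25 with 0.1 FPKM added, and the exact permutation p was 0.0794. For a gene at this level the choice of the added value sets the size of the change.

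Iars2 (isoleucyl, chr1:185284726-185329396) was at 7.11, 6.76, 6.55, 6.94 and 7.33 FPKM in ASK1f/f and at 6.52, 5.68, 5.15, 6.75 and 7.34 FPKM in ASK1+hep livers, with a log2 fold change of -0.13 ± 0.10. As for cytosolic Iars, ASK1+hep replicate 3 was the lowest and replicate 5 the highest liver. Nars2 (asparaginyl, chr7:96951505-97064758) was at 2.37, 2.34, 2.68, 2.59 and 1.76 FPKM in ASK1f/f and at 2.16, 1.74, 1.51, 2.08 and 2.93 FPKM in ASK1+hep livers. These livers were again its lowest and its highest, and the log2 fold change was -0.13 ± 0.13. Aars2 (alanyl, chr17:45506841-45520843) was at 5.32, 5.20, 4.87, 4.65 and 4.42 FPKM in ASK1f/f and at 5.44, 5.19, 6.76, 5.87 and 4.30 FPKM in ASK1+hep livers. Here the order was turned, with replicate 3 highest and replicate 5 lowest, and the log2 fold change was 0.14 ± 0.11.

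Lars2 (leucyl, chr9:123366927-123462666) was the most variable of the 36 members. It was at 48.6, 34.4, 24.9, 36.5 and 50.5 FPKM in ASK1f/f and at 54.7, 34.2, 61.5, 34.8 and 22.7 FPKM in ASK1+hep livers. High and low livers occurred in both genotypes, with a standard deviation within genotypes of 0.490 on the log2 scale against a median of 0.163 for the mitochondrial enzymes. The difference between genotypes, a log2 fold change of 0.049 ± 0.27, turned negative when libraries were scaled by all reads (-0.028) and without ASK1+hep replicate 3 (-0.11). The other 10 mitochondrial enzymes had log2 fold changes from -0.10 for Cars2 (cysteinyl) to 0.10 for Tars2 (threonyl).

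**Figure D3:**
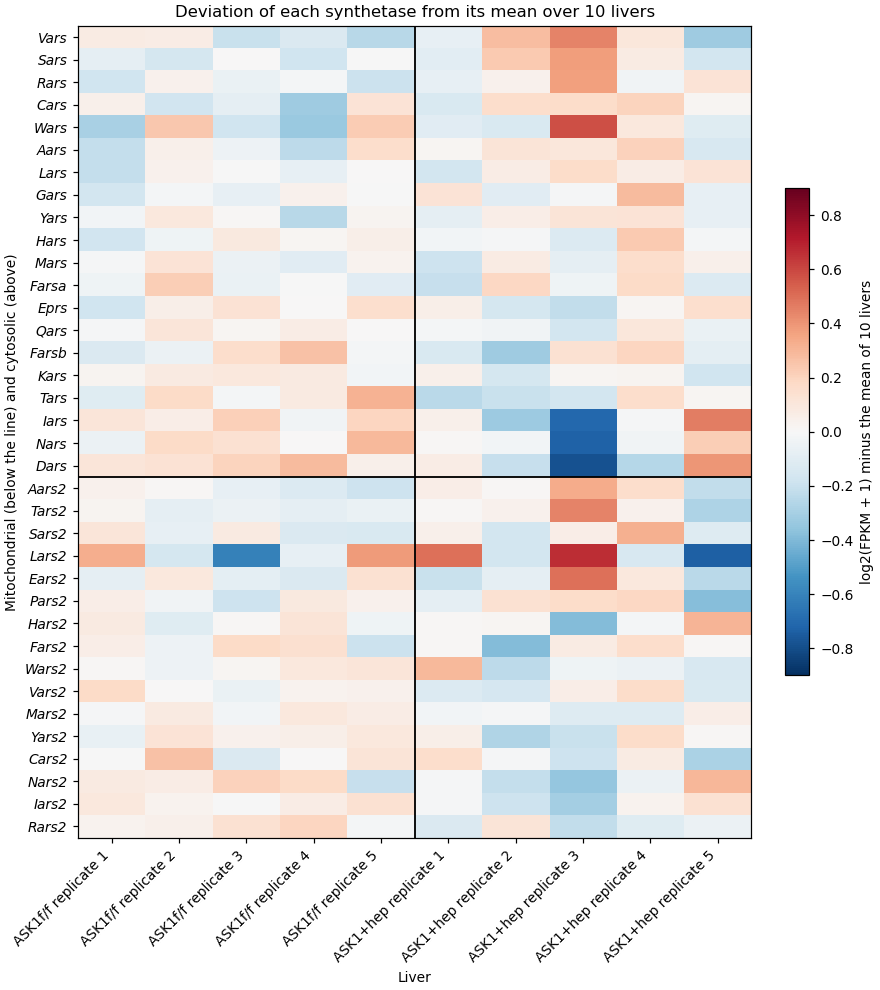
Deviation of each synthetase in each liver from its mean over the 10 livers, as log2(FPKM + 1), with cytosolic enzymes above and mitochondrial enzymes below the horizontal line and the genotypes separated by the vertical line. The ASK1+hep columns differ among themselves, and ASK1+hep replicate 3 is the extreme liver for 19 of 36 rows in both directions.

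The extreme values of the members gathered in 2 livers, at shares close to those over all genes tested. ASK1+hep replicate 3 was the highest or the lowest of the 10 livers for 19 of 36 members (52.8%), comprising 5 highest and 5 lowest cytosolic and 4 highest and 5 lowest mitochondrial enzymes, beside 52.4% of all genes tested. It was lowest for Dars, Eprs, Iars, Nars and Qars and highest for Lars, Rars, Sars, Vars and Wars. ASK1+hep replicate 5 was extreme for 13 of 36 members (36.1%), against 33.1% of all genes, and none of the other 8 livers exceeded 9 of 36. Cps1, a periportal hepatocyte gene of the urea cycle, was at 94.9 FPKM in ASK1+hep replicate 3 and at 616 FPKM in ASK1+hep replicate 5, the lowest and the highest of the 10, with 295 to 583 FPKM in the others. Cps1 is also 1 of the 6 hepatocyte markers. Their summed level in ASK1+hep replicate 3 was 45311 FPKM, within the 38282 to 47374 FPKM of the ASK1+hep livers, so the list did not fall with Cps1. The part of Cps1 in the levels of the synthetases was not tested.

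Summed over a class, the levels of the genotypes overlapped. The 20 cytosolic enzymes together were at 217 to 247 FPKM in ASK1f/f and at 223 to 249 FPKM in ASK1+hep livers. The mitochondrial enzymes without Lars2 summed to 53.8 to 57.0 FPKM in ASK1f/f and 50.1 to 58.9 FPKM in ASK1+hep livers. With Lars2 they summed to 80.2 to 106 FPKM in ASK1f/f and 76.0 to 116 FPKM in ASK1+hep livers. Correlations among members were of both signs, with low medians and a wide range. After removal of the genotype means, the correlation across the 10 livers had a median of 0.15 over the 190 pairs of cytosolic enzymes, 0.042 over the 120 pairs of mitochondrial enzymes and 0.046 over the 320 pairs between the classes. These medians moved with single livers: leaving out 1 at a time gave 0.073 to 0.21, -0.016 to 0.10 and -0.043 to 0.087. Single pairs ran from -0.90 to 0.88, from -0.91 to 0.89 and from -0.95 to 0.93 in the same order. The most negative pair, Tars2 and Dars, was at -0.86 without ASK1+hep replicate 3, and the most positive, Hars2 and Dars, at 0.80. The median over all pairs of genes tested was -0.0007, and all these pairs share the same 10 libraries and their scaling.

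The ratio of the FPKM of the cytosolic to that of the mitochondrial enzyme of the same amino acid within each liver sets aside differences in library scaling. The tests between genotypes added 1 FPKM to each level, which removes the scaling only in part for weakly expressed enzymes. Of 17 such comparisons, 13 had the cytosolic enzyme higher in all 10 livers, with the largest median ratio of FPKM, 46.3, for Mars over Mars2. The order was reversed in all 10 livers for leucine, where the median ratio of Lars to Lars2 was 0.202, and for isoleucine, where that of Iars to Iars2 was 0.766. Yars was above Yars2 in 8 and Farsa above Fars2 in 3 of 10 livers, so these levels were not ordered in the same way in all livers.

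**Figure D4:**
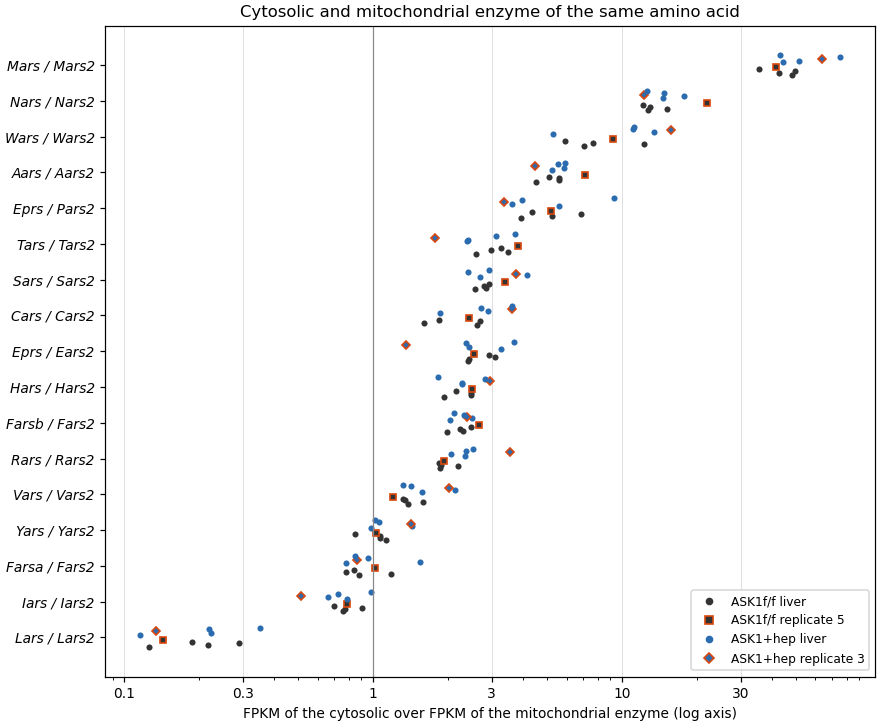
Ratio of the FPKM of the cytosolic to that of the mitochondrial enzyme of the same amino acid in each of the 10 livers, on a log axis, sorted by the median ratio, with ASK1f/f in black and ASK1+hep in blue. All points lie right of 1 for 13 comparisons and left of 1 for Iars over Iars2 and Lars over Lars2.

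The genotype difference of a cytosolic enzyme differed from that of its mitochondrial partner in 1 of 17 comparisons at an unadjusted exact permutation p under 0.05, and p ranged up to 0.881. For arginine, the ratio of Rars to Rars2 was 1.87, 2.20, 1.88, 1.85 and 1.93 in ASK1f/f and 2.34, 2.06, 3.57, 2.37 and 2.54 in ASK1+hep livers. In 4 of 5 ASK1+hep livers the ratio was above that of every ASK1f/f liver. The difference in the log2 ratio, with 1 FPKM added to each level, was 0.33 (exact two-sided permutation p = 0.0159, where 0.00794 is the smallest p that 5 against 5 livers allow). It was 0.22 (exact permutation p = 0.0317) without ASK1+hep replicate 3 and 0.21 (exact permutation p = 0.0571) without ASK1f/f replicate 5 as well. These p-values were not adjusted for the 17 comparisons, and 1 of 17 under 0.05 is a count that chance alone can give. With same-numbered livers taken as pairs, a sign-flip permutation test gave p = 0.125 for this ratio and p = 0.1875 for Rars2 alone. In 7 of the 17 comparisons the log2 fold changes of the partners had the same sign.

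The ATF4 pathway offered the closest reference for the cytosolic class. Atf4 was at 30.8, 40.3, 33.3, 32.0 and 26.2 FPKM in ASK1f/f and at 27.9, 44.1, 66.9, 58.8 and 31.0 FPKM in ASK1+hep livers, with a log2 fold change of 0.41 ± 0.23 and overlapping groups. Asns, the asparagine synthetase and a well-known ATF4 target, was at 1.86, 0.488, 0.391, 1.63 and 5.77 FPKM in ASK1f/f and at 6.56, 10.4, 2.65, 8.57 and 6.93 FPKM in ASK1+hep livers. All ASK1+hep livers but replicate 3 were above all ASK1f/f livers, and the highest ASK1f/f value came from replicate 5, the library with high Map3k5. Asns had a log2 fold change of 1.56 ± 0.42 with an exact permutation p of 0.0159, and its adjusted p in limma was 0.726. Of 9 ATF4 pathway genes outside the synthetases, 8 had a higher mean in ASK1+hep livers, beside 48.0% of all genes tested. The median log2 fold change over the 9 was 0.32. An unadjusted limma p under 0.05 was found for 3 of them, beside 5.77% of all genes tested. These were Asns, Fgf21 and Trib3, the latter 2 singled out after their values were seen. Fgf21 had the lowest p of all genes tested, and the list was chosen with earlier results of these data known.

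The synthetases usually listed as ATF4 targets had smaller fold changes. Of the 13, 9 had a higher and 4 a lower mean in ASK1+hep livers, with a median log2 fold change of 0.088 and a range from -0.22 for Nars to 0.18 for Vars, and none had an unadjusted p under 0.05. Of the other 7 cytosolic enzymes, 2 had a higher and 5 a lower mean, with a median of -0.073. The upper ends of the 95% intervals for the 13 reached 0.50 on the log2 scale at most (Wars). Among the 9 pathway genes the lower ends were 1.36 for Fgf21, 0.65 for Asns, 0.16 for Trib3 and -0.087 for Atf4, with a lowest of -1.24. The intervals of Aars, Cars, Sars, Vars and Wars held the median of the 9 pathway genes, and those of the other enzymes among the 13 lay below it. The difference between the lists was not tested.

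Some of these genes carry the amino acid response element near their start, and the stretches that hold it are shown because they set cytosolic members beside Asns, a target of the same factor. The core TGATGNAA, the site that ATF4 binds together with C/EBP partners, was searched on both strands of the RefSeq windows of GRCm38.p6 that run from 250 bases before to 50 bases after the start. Windows were given for 13 cytosolic and 14 mitochondrial members. The core was found in 5 of 13 cytosolic members (Aars, Gars, Iars, Tars and Yars) and in 0 of 14 mitochondrial members, and 4.51% of all 27025 genes with windows hold it. In the sequences of 4 of these members and Asns, written 5′ to 3′ along the strand of the gene, capitals mark the core, which reads TTGCATCA or TTTCATCA where it lies on the opposite strand.
Gars, chr6:55037960-55037989: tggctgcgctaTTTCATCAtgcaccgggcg
Iars, chr13:49682126-49682155: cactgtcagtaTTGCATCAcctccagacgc
Tars, chr15:11399655-11399684: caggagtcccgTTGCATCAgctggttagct
Yars, chr4:129189895-129189924: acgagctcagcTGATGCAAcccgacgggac
Asns, chr6:7693214-7693243: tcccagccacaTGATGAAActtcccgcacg

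The 5 members with the core did not share a direction. Their log2 fold changes were 0.12 for Aars, 0.088 for Gars, 0.058 for Yars, -0.17 for Tars and -0.22 for Iars, against 1.56 for Asns, whose window holds the same core. A match of letters describes these windows only and says nothing of binding in these livers.

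The remaining steps of tRNA charging and translation were described by 35 further genes, of which 34 were tested. Of these, 13 had a higher and 21 a lower mean in ASK1+hep livers, none reached the adjusted threshold in limma and 2 were under 0.05 before adjustment, beside 5.77% of all genes tested, so that their number was close to the background. Prorsd1, a relative of the domain that removes wrongly attached amino acids from prolyl-tRNA, was at 6.81, 6.36, 6.75, 7.47 and 6.56 FPKM in ASK1f/f and at 6.78, 8.11, 10.5, 8.56 and 8.09 FPKM in ASK1+hep livers. In 4 of 5 ASK1+hep livers it was above every ASK1f/f liver, with a log2 fold change of 0.26 ± 0.11 and an adjusted p of 0.812. Mtif3, a mitochondrial translation initiation factor, was at 4.14, 3.34, 4.03, 4.41 and 3.17 FPKM in ASK1f/f and at 4.59, 4.33, 6.51, 5.48 and 3.89 FPKM in ASK1+hep livers. Its groups overlapped, with a log2 fold change of 0.30 ± 0.13 and an adjusted p of 0.812.

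Within this list the groups were described by their medians. The scaffold proteins of the multisynthetase complex, Aimp1, Aimp2 and Eef1e1, had log2 fold changes of 0.15, -0.22 and -0.024. The 6 cytosolic elongation factors had a median of -0.026, the 9 mitochondrial translation factors -0.097, and the 4 genes that complete mitochondrial glutaminyl-tRNA and formylmethionyl-tRNA (Gatb, Gatc, Qrsl1 and Mtfmt) -0.062, all 4 with a lower mean. Eef2, the factor that moves the ribosome along the mRNA, was singled out from the 34 tested genes after its values were seen. It was lower in each ASK1+hep liver than in each ASK1f/f liver, at 370 ± 44.5 FPKM against 436 ± 22.3 FPKM (SD, n = 5 per genotype). Over all genes tested, the groups separated fully in 0.864%. The log2 fold change of Eef2 was -0.25 ± 0.13, with an adjusted p of 0.812 in limma.

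Some members lie over other genes, and whether the counting used the strand is not given in the sources used here. Aars overlaps Exosc6 on the same strand, where counting by strand would not separate them. On opposite strands, Hars and Hars2 overlap at their starts, Mars overlaps Ddit3, Farsb Sgpp2, Wars Wdr25, Yars C77080, Cars2 Naxd, Ears2 Ubfd1, Fars2 Lyrm4 and Nrn1, and Iars2 Rab3gap2, so that reads in these stretches could belong to either gene.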

How the data were processed

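Liver RNA of 10 mice was sequenced after poly-A selection, and the genotype of each mouse was taken from the sample labels. The authors mapped cleaned reads with Hisat2, counted them per gene with FeatureCounts and deposited FPKM values with gene names, positions and lengths. The submitters' processing notes name fastp, and the genome build is not given in the sources used here. Of the 36 synthetases, 33 had the same position as in GENCODE M21 (GRCm38).

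Multiplying FPKM by gene length returned whole reads once divided by the smallest unit of each library (100% of values within 0.01 of a whole read), and these recovered reads served for depth, for the filter and for limma-voom. Between any 2 libraries the chi-square divided by its degrees of freedom was 19.2 or more, so no library was a repeat of another. Since FPKM are not counts, genotypes were compared on the scale of log2(FPKM + 1) by limma (version 3.58.1, R version 4.3.3) with its trend option, no covariate and Benjamini-Hochberg adjustment over 13306 genes. The filter kept genes with 10 or more reads, after scaling to the median library, in 5 or more livers, and 15 or more over all livers. The method was tested on simulated data. Where changes were simulated, they were larger than the fold change of any member. The simulation therefore does not show how well changes as small as those of the members are found. Single members and ratios were compared with exact two-sided permutation tests (SciPy 1.17.1). Samples are separate mice, so p-values measure the spread between mice.

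The members, the pathway lists and the markers were chosen with earlier results of these data known. Described liver by liver were the 10 cytosolic and 5 mitochondrial members with the smallest p and, in each class, the members with the highest and lowest median FPKM, beside Map3k5, Atf4, Asns and pathway genes with an unadjusted p under 0.05. Other genes were named by range, or are marked. Alternatives were other filters, another added value, limma-voom, limma-voom with quality weights, a replicate block, the prefix of the animal tag, scaling by all reads and leaving out livers. Promoter windows were taken from RefSeq. A gene of the pathway lists and the promoter stretches of 1 member are not reported here.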

Additional observations from a re-analysis of the deposited data

Results flagged for a closer look

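In groups of 5 livers, 6 of 82 sets of values examined held a liver whose gap to its nearest neighbour, as a share of the range of the group, exceeded 0.71, a limit that chance exceeds in about 1 of 20 sets. Among the synthetases this was the case for Farsa in ASK1f/f replicate 2 (5.68 FPKM against 4.72 for the next liver, share 0.716), for Hars in ASK1+hep replicate 4 (17.7 against 14.8 FPKM, share 0.722), for Wars in ASK1+hep replicate 3 (9.01 against 6.17 FPKM, share 0.726) and for Tars2 in ASK1f/f replicate 1 (4.81 against 4.51 FPKM, share 0.737). These came from 4 different livers, so that 1 liver did not stand apart for all of them.

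Map3k5 was far higher in the library labelled ASK1f/f replicate 5 than in the next ASK1f/f liver (19.8 against 6.88 FPKM, share 0.856), and the same library had the highest Asns among the ASK1f/f livers (5.77 against 1.86 FPKM, share 0.727). Fgf21, in contrast, was at 3.21 FPKM in this library, within the ASK1f/f range of 2.46 to 4.74 FPKM and below the 7.40 to 30.1 FPKM of the ASK1+hep livers. Whether the genotype label of this library is right could not be settled. None of the 4 synthetase values above came from this liver, and without it 0 of 36 members had an unadjusted p under 0.05.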

How the results depend on the processing

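Under 18 other settings and 1 chosen after seeing the data (leaving out both livers that stand apart, ASK1f/f replicate 5 and ASK1+hep replicate 3), 0 of 36 members passed the adjusted threshold in limma, and the lowest adjusted p of any member in any of them was 0.383. With quality weights in limma-voom, 1 cytosolic member (Dars) had an unadjusted p under 0.05 and 1 of all genes passed the adjusted threshold. Without a filter on low values, 1222 of 26389 genes tested had an unadjusted p under 0.05, against 768 of 13306 with the filter. Scaling by all reads moved the cytosolic median log2 fold change to -0.060, turned Lars2 to -0.028, and changed how many of the genes under 0.05 before adjustment were higher in ASK1+hep livers from 52.9% to 31.4%. Without both livers that stand apart, 3 of all genes passed the adjusted threshold, Lars2 was at -0.0081, and 0 of the 16 members and 0 of the 17 ratios had an exact permutation p under 0.05.

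Across the fits without 1 liver each, cytosolic members with an unadjusted p under 0.05 numbered 0 to 2 (Dars and Iars without ASK1+hep replicate 5), mitochondrial members 0 to 1 (Wars2 without ASK1+hep replicate 1), all genes 557 to 1724 (1178 without ASK1+hep replicate 1 and 1724 without ASK1+hep replicate 5), and all genes past the adjusted threshold 0 to 1. Lars2 ranged from -0.11 to 0.24, members with an exact permutation p under 0.05 from 0 to 3 and ratios from 1 to 3. With the replicate block, 0 of 36 members and 880 of 13306 genes had an unadjusted p under 0.05. Same-numbered livers correlated at 0.021 to 0.174 in their deviations from the genotype means (mean 0.107, against -0.027 for livers with different numbers), and 6 of 10 livers correlated best with their own number, a hint of pairing from the data. For all replicate numbers but the last, the animal tags of the same-numbered mice in the sample titles also follow one another directly. Not every same-numbered correlation was over 0.1, and the labels do not state what the numbers or tags share. The main tests therefore treat the livers as unpaired, and whether same-numbered mice came from one litter is not given. Between same-numbered livers, Lars was higher in ASK1+hep in 5 of 5, Farsb and Mars2 were lower in 5 of 5, and the ratios of Tars to Tars2 and of Vars to Vars2 differed in one direction, each at the smallest p that a sign-flip permutation test over 5 pairs can give, 0.0625. Chance alone gives one direction in all 5 pairs with that same probability, and the share over all genes tested was not counted. These members and ratios are therefore listed and not read as a difference. Depth limits the weakest members most, with 29 to 100 reads per liver for Wars2 and 40 to 79 for Mars2.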

Other observations

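The members differed in how steady they were between livers. Within genotypes, the standard deviation of log2(FPKM + 1) was smallest for Mars2 (0.0658), whose level is near the value added before the logarithm, and for Qars (0.0766) and Kars (0.0846), and largest for Lars2 (0.490), Iars (0.317) and Dars (0.316). The median over the 36 members was 0.158, beside 0.195 over all genes tested.

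Class I and class II enzymes, which differ in the fold of the catalytic domain, were compared by counts alone, with no test. Of the 10 class I cytosolic enzymes 7 had a higher mean with ASK1 overexpression, at a median log2 fold change of 0.081, and of the 10 class II enzymes 4 did, at a median of -0.048. Eprs, the glutamyl-prolyl enzyme, was counted with class I only. The ratio of the highest to the lowest liver reached 2.72 for Iars and 2.70 for Lars2, and was 1.23 for Kars.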
